A study of Drosophila melanogaster with 46 samples.

Results

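The inbred fly line DGRP_25185 is represented by 1 ATAC-seq library, and in that library 275 of 30774 regions of open chromatin (0.894%) stood at least 2-fold above the highest of 14 comparable libraries after scaling for depth. Members were chosen by their log2 CPM in this library and the 14. A region counted as gained when its level was at least 1 log2 unit, that is 2-fold, above the highest of those 14, and as lost when it was at least 1 log2 unit below the lowest. The library lost 125 regions (0.406%) by this rule. The level is log2 CPM, the log2 of counts scaled to the library total and between libraries (CPM), with a prior count of 2 that makes folds of low regions smaller than the raw counts would give. The same values chose the members and describe them, 1 library has no replicate check, and no test was made of any difference below. With 1 library, the line and the library cannot be told apart.

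All libraries used here came from hand-dissected eye-antennal discs of wandering third-instar larvae raised on normal food at 25 degrees, and the labels name no transgene and no drug for them. Each line is an inbred strain of the Drosophila Genetic Reference Panel, and the series set out to find DNA differences between strains that go with differences in accessibility. The titles of 15 libraries, that of DGRP_25185 among them, end in IR, a suffix that no label explains. The other 14 with the suffix came from DGRP_25174, DGRP_25186, DGRP_25193, DGRP_25194, DGRP_28202 and DGRP_28222, which have only this library, and from DGRP_25208, DGRP_28123, DGRP_28260, DGRP_28262, DGRP_28265, DGRP_28275, DGRP_29652 and DGRP_55031, where the suffix marks replicate 2. A further 16 DGRP libraries lack the suffix, and the rule did not use them. They are replicate 1 of those 8 lines and the single libraries of DGRP_25187, DGRP_25199, DGRP_28153, DGRP_28206, DGRP_28224, DGRP_28243, DGRP_29651 and DGRP_55026. The labels do not say how many animals went into a library. The other 15 of the 46 samples in the series are not analysed here.

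In ATAC-seq the transposase Tn5 inserts sequencing adapters where DNA is not wrapped in nucleosomes or packed away, so that active enhancers and promoters collect many reads and closed chromatin few. The eye-antennal disc is the larval epithelium that gives rise to the adult eye, antenna and head capsule. Inbred lines of the panel differ from each other in single bases, in insertions and deletions, and in which transposable elements they carry and where. The DNA around fly centromeres is packed as heterochromatin and is rich in repeats. Regions are named by their deposited positions on dm3. Neither the sequence nor the genes of dm3 were used, so regions carry no gene name and no sequence is shown, and the tissue label was not checked against marker genes.

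The DGRP_25185 library held 3894190 counts, against 2647425 to 11840103 in the other 14 (median 5602818), so it was the third shallowest of the 15. Its median level over all regions lay 0.0067 log2 units from the median of the 14. Its mean count per region on X was 1.01 times that on the autosomal arms, within the range of 0.767 to 1.07 in the 14. On the main axis of variation between libraries, the first principal component, its score of 21.8 lay inside their range of -36.8 to 37.8.

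The gained regions were mostly places where the other libraries had few reads. They held 30 to 574 counts in DGRP_25185, with a median of 102, and lay a median of 1.78 log2 units above the highest of the 14. Over the 16 libraries that the rule did not use, their mean level had a median of 1.10 log2 CPM, against 3.77 over all regions. Of the 275, 214 (77.8%) were among the 10% of regions with the lowest such mean, of which 6.95% were gained. Only 17 lay above the median of all regions. Together the gained regions took 0.829% of the counts of the DGRP_25185 library (exact Clopper-Pearson 95% interval 0.820 to 0.838, counting error only). The same regions took 0.0794% to 0.220% in the other 14 libraries and 0.0845% to 0.137% in the 16. The highest of these, 0.220%, was the library of DGRP_25174. That DGRP_25185 lay above the 14 here follows from the choice of regions. The 16 lay below it too.

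Set against the 16 libraries, 267 of the 275 lay above all of them and 206 lay at least 1 log2 unit above. Over all regions DGRP_25185 lay above all 16 in 3643 (11.8%). The 275 were chosen by their high level in DGRP_25185, so their position above the 16 is no independent check. The threshold itself cut through a continuum. Just inside it, 3L:7572827-7573221 had 4.47 log2 CPM against 3.46 in the highest of the 14, and X:7073116-7073850 had 4.94 against 3.93. Just outside it, 2L:12649083-12649404 had 3.74 against 2.75 and 3R:15651308-15651557 had 3.55 against 2.56.

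Read by the same rule, each of the other 14 libraries gained 9 to 95 regions against its own 14, with a median of 25. The highest, replicate 2 of DGRP_28262, gained 95, and 86 of those were at least 2 log2 units above the rest, against 83 of the 275 in DGRP_25185. The losses of DGRP_25185 were not the most numerous. Replicate 2 of DGRP_25208 lost 366 regions and replicate 2 of DGRP_55031 lost 160, and both of these libraries were shallower. These counts share their libraries, since each library serves as reference for the others.

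**Figure D1:**
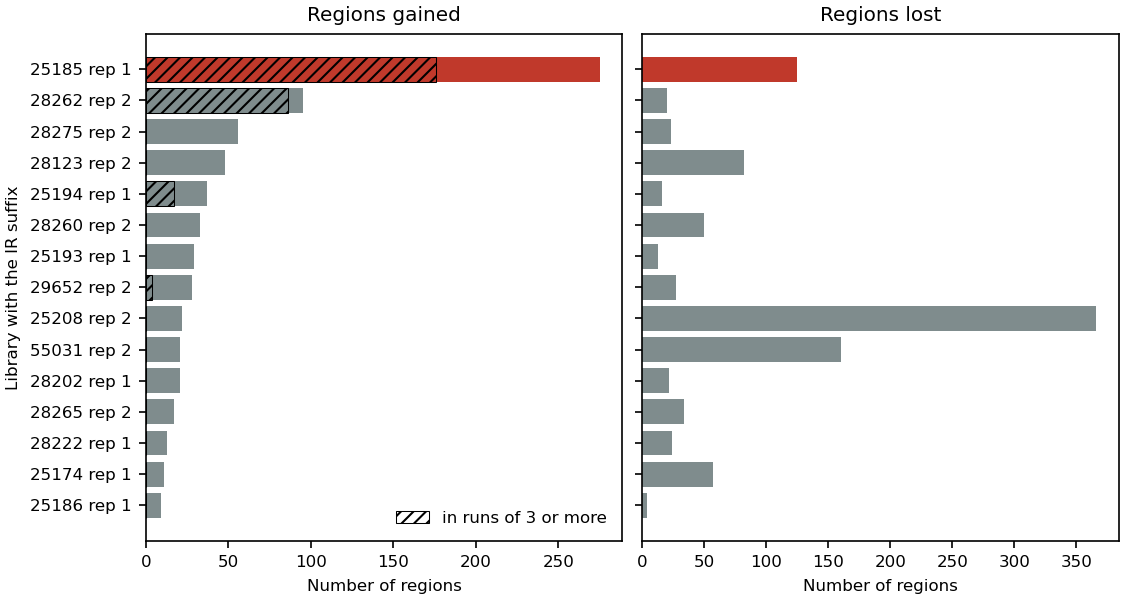
Number of regions gained (left) and lost (right) by the same rule in each of the 15 libraries with the suffix; hatching marks gained regions in runs of 3 or more. DGRP_25185 had 275 gains, 176 of them in runs, and the other libraries had 9 to 95; for losses it had 125, below the 366 and 160 of the replicate 2 libraries of DGRP_25208 and DGRP_55031.

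The gained regions of DGRP_25185 were clustered. They formed 131 separate units when regions that follow each other in the deposited order of an arm were joined: 87 single regions, 6 pairs and 38 runs of at least 3. The runs held 176 of the 275 regions (64.0%). There were 9 runs of 3 regions, 9 of 4, 10 of 5, 7 of 6 and 3 of 7. In 11 of the other 14 libraries no gained region lay in a run of 3 or more. The reference of each of the 14 included DGRP_25185, so no region in its 38 runs could count as gained in them. That includes libraries raised to a lesser degree in the same runs, described below. The exceptions were replicate 2 of DGRP_28262 with 86 of its 95 regions and a longest run of 8, DGRP_25194 with 17 of 37, and replicate 2 of DGRP_29652 with 4 of 28.

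Regions inside the runs were packed closely. The median gap between neighbours inside a run was 535.5 bp, against 1789 bp between adjacent regions over the genome and 2953 bp between a run and the next region outside it. The 76 regions that flank the runs are by construction regions that missed the threshold. Of these, 17 lay above the highest of the 14, as did 3395 of all 30774 regions. Excess is defined here and below as log2 CPM minus the median of the 16 libraries without the suffix. In the flanking regions it had a median of 0.16 in DGRP_25185, against 0.013 over all regions. It was 1 or more in 14 of the 76, and no share of all regions is given for that level. The 176 regions inside the runs had a median excess of 4.002, and all 176 lay above every one of the 16 libraries. They were chosen by their level in DGRP_25185.

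The longest runs were 3 of 7 regions each. The run 2L:15586567-15593405 spanned 6839 bp and its 7 regions held 47 to 139 counts. Its highest region, 2L:15587294-15587728, had 5.22 log2 CPM in DGRP_25185, against 0.69 to 3.49 in the other 14 (median 1.49) and 0.22 to 2.16 in the 16 (median 1.28). The run X:9692659-9699561 spanned 6903 bp. Its highest region, X:9698234-9698775, had 5.38 log2 CPM against 1.05 to 3.59 in the 14 and 0.57 to 2.45 in the 16. The run X:22022424-22028464 spanned 6041 bp and lay 0.387 Mb from the last deposited region on the centromere side of X. Its highest region, X:22024944-22025513, had 5.15 log2 CPM against 0.61 to 3.36 in the 14 and -0.24 to 1.92 in the 16. In each of these 3 regions DGRP_25185 lay above the 14 by the rule, and it also lay above all of the 16. DGRP_25174 was the highest of the 14.

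Over the 38 runs the median excess of a run in DGRP_25185 was 2.52 to 5.22 (SD 0.518), with most runs near 4. In 34 of the 38, holding 163 regions, it lay between 3.68 and 5.22, with a median of 4.07 (SD 0.243, n = 34 runs), equal to 16.8-fold. Only the run 2L:8594548-8601522 reached 5.22. The 34 runs were set apart from the other 4 after their values were seen, by an excess of at least 1.5 in DGRP_25174. Runs are not replicates of the line, and the SD describes their spread within 1 library. Over the single regions within a run the excess had a median SD of 0.363, with a range from 0.147 to 1.67.

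The same 34 runs had smaller excesses in 3 other libraries with the suffix. Their median excess was 2.05 in DGRP_25174 (1.67 to 2.30, SD 0.162), equal to 4.14-fold. It was 1.55 in replicate 2 of DGRP_28260 (1.03 to 1.87, SD 0.182), equal to 2.93-fold, and 1.03 in DGRP_25186 (0.64 to 1.29, SD 0.194), equal to 2.04-fold. The order DGRP_25185, DGRP_25174, DGRP_28260 replicate 2, DGRP_25186 held in 33 of the 34 runs, and in every one of the 34 DGRP_25185 lay above DGRP_25174, by 1.46 to 3.37. Among the remaining 27 libraries the highest in a run lay between 0.58 and 1.04, which was above DGRP_25186 in 8 of the 34 runs and above replicate 2 of DGRP_28260 in 0. The other library of DGRP_28260, replicate 1, had an excess of -0.53 to 0.53 with a median of 0.05, so the replicates of that line did not overlap in these runs. The excesses of all libraries share the 16 libraries as their reference, and since the rule placed DGRP_25185 above the other 14, its own position in the order is given by the choice of regions. The level of DGRP_25174 in these runs was likewise set in part by the choice of the 34.

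**Figure D2:**
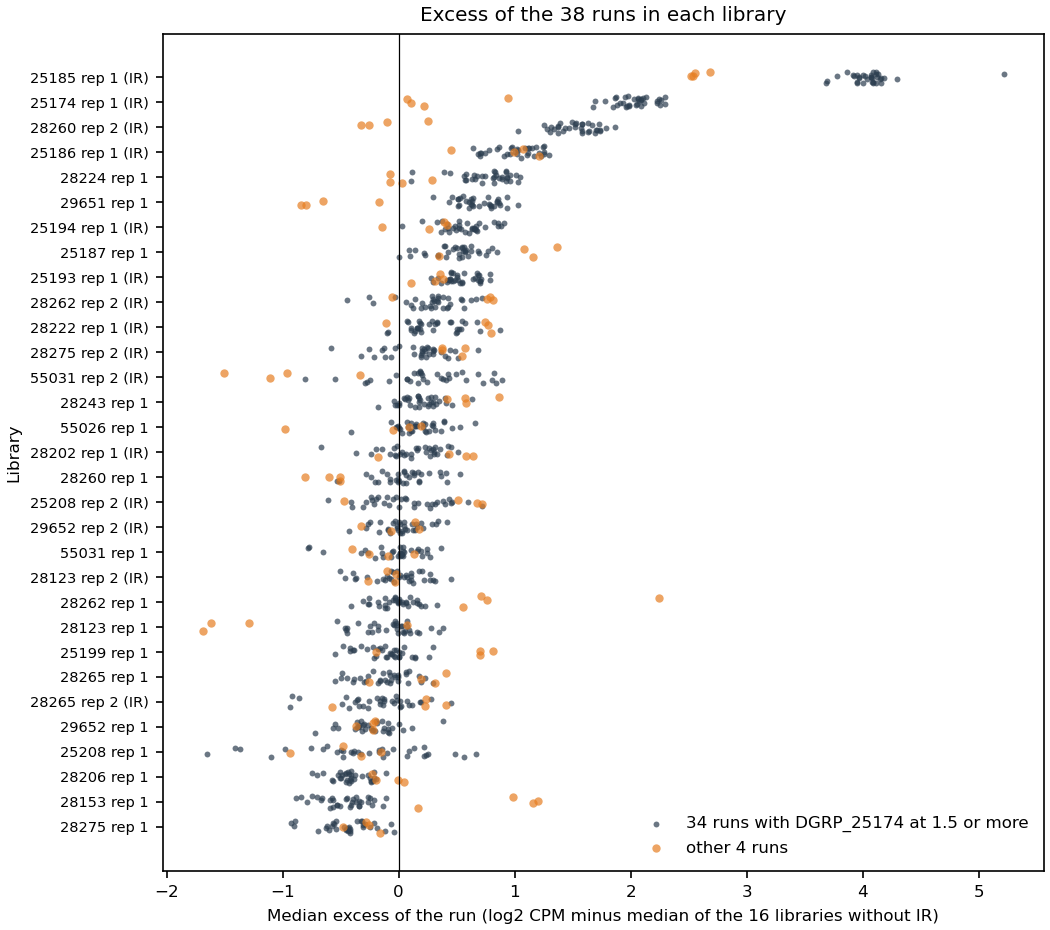
Median excess of each of the 38 runs in each of the 31 libraries (log2 CPM minus the median of the 16 libraries without the suffix; 1 point is 1 run, dark for the 34 runs and orange for the other 4). The dark points form narrow bands near 4.07 in DGRP_25185, 2.05 in DGRP_25174, 1.55 in DGRP_28260 replicate 2 and 1.03 in DGRP_25186, and lie at or below 1.04 elsewhere.

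The internal layout of the 34 runs repeated itself. Their spans ran from 2682 to 7237 bp with a median of 5834.5 bp, and 12 of them lay between 6738 and 7237 bp. In 19 runs the second region began 726 to 837 bp after the first. In 11 other runs the last region ended 747 to 861 bp after the end of the one before it, which is the same spacing read from the opposite side. No run had distances inside a window of 700 to 870 bp on both sides and 4 had them on neither. These counts depend on the edges of the window. The run X:22173443-22176624 had 879 bp at its start and 773 bp at its end, and X:706436-711854 had 689 bp at its start. The window of 700 to 870 bp was chosen after these distances were seen, and over all adjacent regions 6.37% had starts that far apart. That share covers start distances only, while a run could enter the window by its start or its end. It also covers all neighbours, which lay farther apart than those inside runs. The deposited regions are a merged set, so their edges are shared by all libraries and are not those of DGRP_25185 alone. Whether the runs hold sequences that resemble each other was not tested, since no sequence was read. Levels in regions with near-identical copies are uncertain, because the sources used here do not say what was done with reads that match several places.

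**Figure D3:**
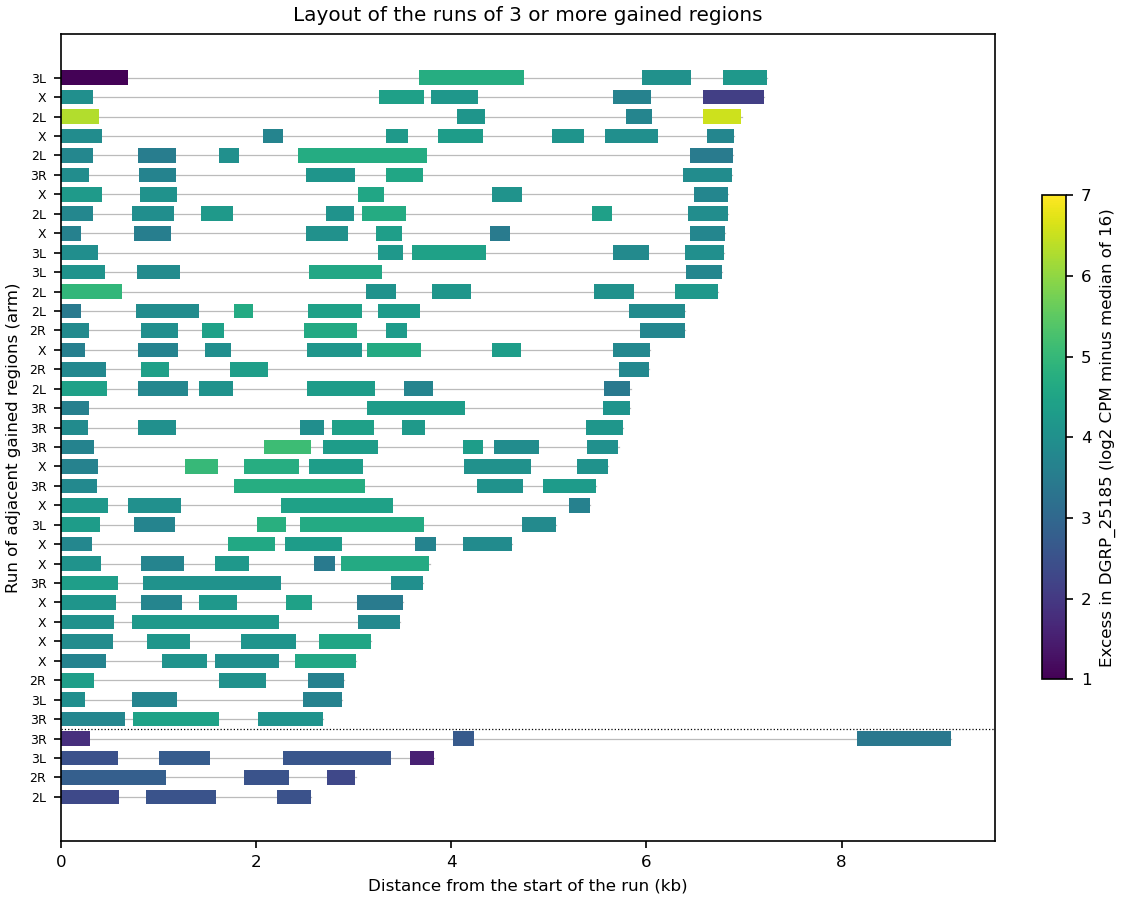
Position and excess of the gained regions in each of the 38 runs; 1 row is 1 run, the horizontal axis is the distance from the start of the run in kb, and colour is the excess in DGRP_25185. The 34 runs above the dotted line are mostly of 1 colour, end at or before 7237 bp, and many show a second region 726 to 837 bp from the start or a last region ending 747 to 861 bp after the one before.

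The other 4 runs, with 13 regions, had different levels. They were 2L:22662603-22665167, 2R:10777316-10780334, 3L:5455853-5459674 and 3R:2660357-2669477. Their excess in DGRP_25185 was 2.52 to 2.68, below all of the 34, and that in DGRP_25174 was 0.08 to 0.94. In replicate 2 of DGRP_28260 it was -0.32 to 0.25, and in DGRP_25186 it was 0.45 to 1.21. In the runs on 2L, 2R and 3L, DGRP_25187 had 1.08 to 1.36 and DGRP_28153 had 0.99 to 1.20. At the run on 3R replicate 1 of DGRP_28262 had 2.24.

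The 2 largest gains lay in 1 run, at its outer ends. The region 2L:8594548-8594941 held 524 counts, or 7.12 log2 CPM, in DGRP_25185. The other 14 libraries had 0.82 to 2.08 there with a median of 1.32, and the 16 did not exceed 1.74. The region 2L:8601131-8601522 held 574 counts, or 7.26 log2 CPM, against -0.10 to 2.66 with a median of 1.20 in the 14, and at most 2.15 in the 16. The inner regions of this run of 4 were lower, with 4.86 log2 CPM at 2L:8598603-8598890 and 4.78 at 2L:8600342-8600608. The excess of the outer regions was thus 6.31 and 6.55, that of the inner ones 4.12 and 3.73, and the last 2 values were within the range of the other runs. The nearest deposited region before the run was 114 bp away.

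Of the 10 largest gains, 5 more were in runs of the same kind. The region 2L:16153996-16154619, first of a run of 5, held 245 counts and 6.03 log2 CPM, against 0.82 to 3.12 in the 14 (median 1.33). The region 2L:15592011-15592218, in a run of 7, had 3.68 log2 CPM from 47 counts (exact Poisson 95% interval 34.5 to 62.5, counting error only), against -1.68 to 0.65. The region X:6340727-6341066, in a run of 6, had 4.50 log2 CPM against -1.68 to 1.64. In 3R:23701508-23701797, first of a run of 5, the value was 4.53 against -0.92 to 1.87. In X:22174322-22174762, in a run of 4, it was 4.14 against -0.95 to 1.47. A level of -1.68 log2 CPM is that of 0 counts. In these 5 regions DGRP_25185 lay above the 14 by the rule, and it also lay above all libraries without the suffix. The largest gain on 3L, 3L:16609749-16610153, also belonged to a run of 5 and had 5.07 log2 CPM against -0.43 to 2.44.

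The remaining 3 of the 10 were single regions, and each was next highest in the same library, that of DGRP_25199, which lacks the suffix. The region 4:566024-566981 was the only gain on chromosome 4. It held 398 counts and 6.73 log2 CPM, against 2.10 to 3.52 in the 14 (median 2.85), 4.75 in DGRP_25199 and at most 3.27 in the rest of the 16. The region 2R:458412-458645 had 3.45 log2 CPM from 40 counts, against -0.98 to 0.53 in the 14, 2.72 in DGRP_25199 and at most 1.02 in the rest. The region 2L:22699670-22700074 had 4.30 log2 CPM from 73 counts, against -0.19 to 1.44 in the 14, 3.21 in DGRP_25199 and at most 1.02 in the rest.

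**Figure D4:**
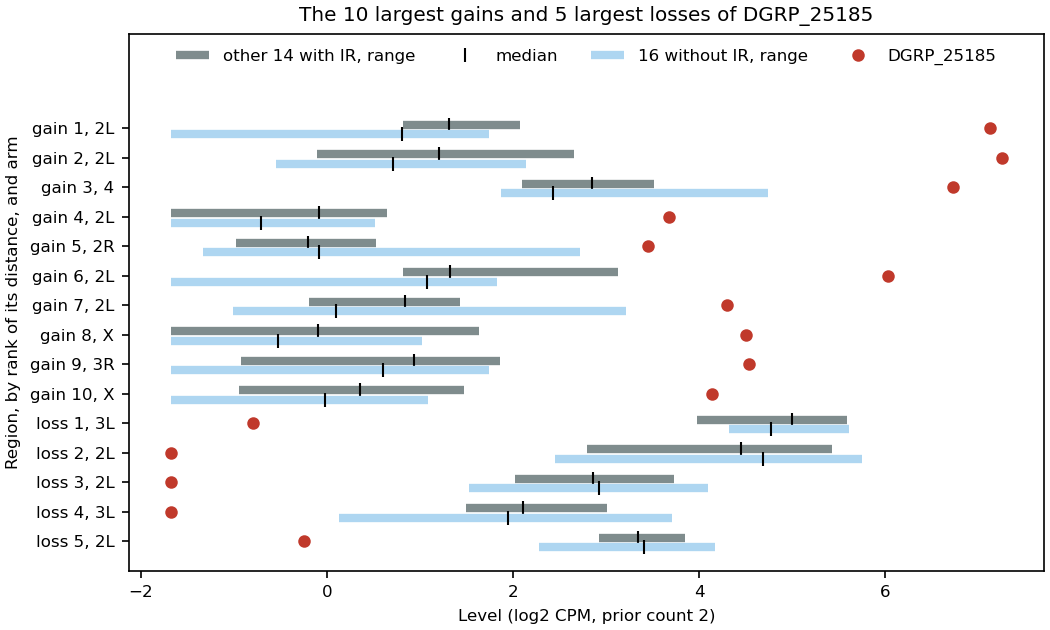
Level (log2 CPM) of the 10 largest gains and the 5 largest losses in DGRP_25185 (red point), with the range and median of the other 14 libraries with the suffix (grey) and of the 16 without it (blue). The first 2 gains stand at 7.12 and 7.26, above 2.66 in every other library; losses 2, 3 and 4 stand at -1.68, the level of 0 counts.

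Outside the runs of 3 or more lay 99 gained regions. Of the 6 pairs, 5 had levels near those of the 34 runs, with an excess of 3.48 to 4.32 in DGRP_25185 and 1.90 to 2.40 in DGRP_25174. The lowest value in DGRP_25185 and the highest in DGRP_25174 lay outside the ranges of the 34 runs. Of the 87 single regions, 6 had an excess of at least 1.5 in DGRP_25174, as did 1.27% of all regions, and 2.95 to 3.86 in DGRP_25185. The other 81 ranged from 1.001 to 4.30 in DGRP_25185, with a median of 1.94. Over the 99 regions the median excess of every other library lay between -0.51 and 0.36. The highest of these was DGRP_25199, in which 26 of the 99 regions (26.3%) had an excess of at least 1, against 1.70% of all regions. The next were replicate 1 of DGRP_28262 with 23 of the 99, DGRP_25174 with 19 and DGRP_25186 with 15. For these libraries no share of all regions is given at that excess, so their counts stand without a background. The 19 of DGRP_25174 include the 6 single regions above and 10 regions in pairs.

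The gained regions were not long. Their length ran from 201 to 1502 bp with a median of 397 bp, against 201 to 3395 bp with a median of 456 bp for all regions. Inside runs the median was 413.5 bp, and outside them 370 bp. Of regions up to 300 bp, 1.27% were gained (72 of 5669), of those above 700 and up to 1000 bp 0.336%, and of those above 1500 bp 0.160% (1 of 625). The length of a region moved with its level: across regions, which are not independent replicates, Pearson's r between length and mean log2 CPM of the 16 libraries was 0.748 and Spearman's rho was 0.806. In the lowest 10% by level, where most gained regions lay, the median length of all regions was 252 bp, below that of the gained. In the other 14 libraries the median length of the gained regions was 314 to 528 bp, so that of DGRP_25185 was inside their range.

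The 3 longest gained regions each belonged to 1 of the 34 runs. X:19928152-19929653, with 1502 bp, held 299 counts and 6.32 log2 CPM against 1.58 to 4.15 in the 14 (median 2.30). 3R:4695401-4696820, with 1420 bp, had 6.22 log2 CPM against 1.55 to 4.16. 3R:6893219-6894559, with 1341 bp, had 6.40 log2 CPM against 1.37 to 4.46. DGRP_25174 was the highest of the 14 in all 3, and none of the 16 libraries exceeded 3.02.

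The runs as a whole were longer than any single gained region, with a median span of 5797.5 bp over all 38. The longest, 3R:2660357-2669477, covered 9121 bp.

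Gained regions lay along the whole length of the arms, with a higher share within 0.5 Mb of the outermost deposited region on the centromere side. There 18 of 445 regions were gained (4.04%), against 0.806% from 0.5 to 1 Mb, 0.588% from 1 to 2 Mb, and 0.612% to 1.19% in the classes farther out. Of the 18 regions, 14 belonged to 3 runs. Outside runs 4 of the 445 (0.899%) were gained, against 99 of 30774 (0.322%) over all regions. With each unit counted once, the class had 7 units, or 15.7 per 1000 regions, against 2.91 to 6.67 in the other classes. On X 12 of 127 regions in this class were gained, 7 of them in the run X:22022424-22028464 and 4 in the run X:22173443-22176624. On 2L 5 of 40 were gained, 3 of them in the run 2L:22662603-22665167. On 2R 1 of 42 was gained, and on 3L (29 regions) and 3R (103 regions) none was. The rest of the 445 regions lay on chromosome 4, and none of them was gained. Over all regions of this class DGRP_25185 lay a median of 0.17 log2 units above the median of the 14. This offset was 0.53 on X, 0.39 on 2L, 0.27 on 3L, 0.16 on 2R and 0.03 on 3R. In the classes farther out it was -0.08 to 0.08. The part of this offset in the higher share of gained regions was not tested.

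Within 2 Mb of the centromere side lay 10.5% of the gained regions and 6.92% of all regions. By the same measure the gained regions of the other 14 libraries had 0% to 37.9%, with a median of 17.99%, so the share in DGRP_25185 was below their median. The 34 runs included 3 within 2 Mb, and the one farthest out, 3L:402450-409686, lay 24.1 Mb away.

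The arms were not alike. On X 1.58% of regions were gained (86 of 5435), on 2L 1.09% (65 of 5983), on 3R 0.809% (58 of 7165), on 3L 0.580% (37 of 6374), on 2R 0.503% (28 of 5570) and on chromosome 4 0.405% (1 of 247). The runs carried most of the difference between X and the rest. Of the 86 regions on X 66 were in runs, and outside runs the share was 0.368% on X and 0.311% on 2L, 2R, 3L and 3R together. Of the 34 runs 13 were on X, 7 on 3R, 6 on 2L, 5 on 3L and 3 on 2R. With each unit counted once, there were 5.70 units per 1000 regions on X, 5.52 on 2L, 4.47 on 3R, 2.87 on 2R and 2.82 on 3L, so that X and 2L were close.

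In DGRP_25185 X held 31.3% of the gained regions and 17.7% of all regions, and in the other 14 libraries the share of their own gained regions on X was 0% to 37.9%. The median level of all regions on X was 0.12 log2 units above the median of the 14 in DGRP_25185, and on the 4 large autosomal arms it was -0.04 to 0.01. The part of this offset in the higher share on X was not tested. In the 34 runs the excess differed little between arms. Its median was lowest on 3L with 3.97, followed by X with 4.02, and it was 4.08 on each of 2L, 2R and 3R. These medians lay within 1 SD (0.243) of each other.

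**Figure D5:**
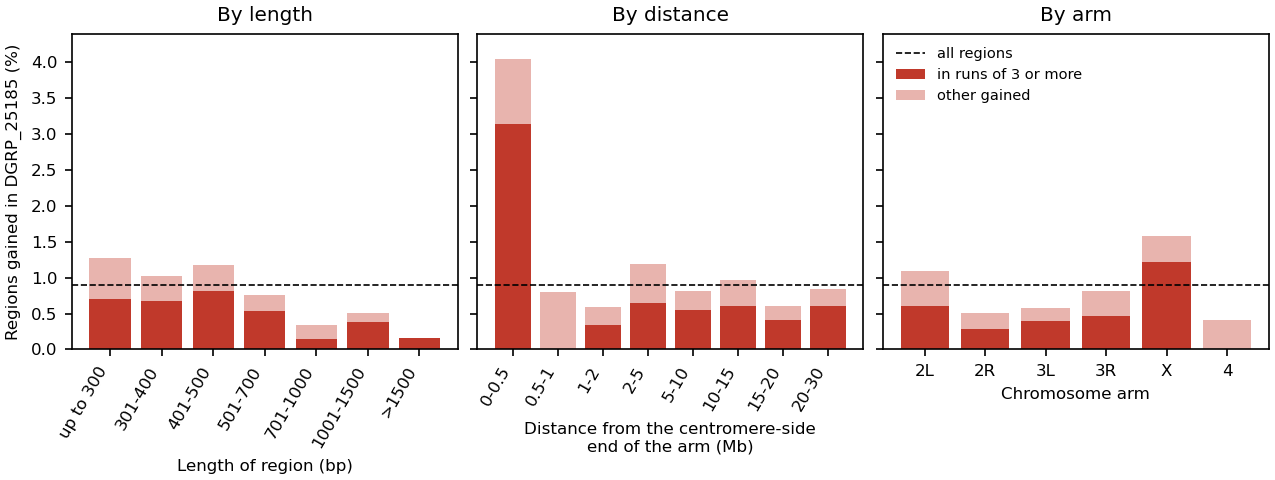
Percent of deposited regions gained in DGRP_25185 by length (left), by distance from the outermost deposited region on the centromere side (middle) and by arm (right), split into regions in runs of 3 or more (dark) and others (light); the dashed line is the 0.894% of all regions. The bar of 4.04% within 0.5 Mb stands out and is mostly dark, short regions exceed long ones, and X has the highest bar of the arms at 1.58%.

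The 125 lost regions were unlike the gained ones in layout. They were spread over the arms at 0.331% to 0.486% of regions on the 5 large arms, with none on chromosome 4, and only 4 of them were next to another lost region. Their median length was 353 bp. They held a median of 3 counts in DGRP_25185, 21 of them held none, and 66 held 3 or fewer. At this depth 3 counts correspond to 0.15 log2 CPM. In the 14 libraries the median level of a lost region had a median of 2.64 log2 CPM, and 16 losses were at least 2 log2 units below the lowest of the 14. Of the 125, 115 also lay below all 16 libraries without the suffix, as did 2415 (7.85%) of all regions. The 125 were chosen by their low level in DGRP_25185, so this is no independent check.

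In the 5 largest losses DGRP_25185 had 0 to 2 counts and each of the other 14 libraries had at least 8. The region 3L:1913433-1913892 had 1 count in DGRP_25185 (exact Poisson 95% interval 0.0253 to 5.57), or -0.79 log2 CPM, against 69 to 520 counts in the other 14. On the log2 CPM scale these 14 ran from 3.98 to 5.59 with a median of 4.999, and the 16 had 4.33 or more. The region 2L:15907356-15907701 had 0 counts (exact Poisson 95% interval 0 to 3.69), against 47 to 251 in the 14 (2.80 to 5.43 log2 CPM, median 4.45). The region 2L:15830705-15831057 had 0 counts against 18 to 128 (2.02 to 3.73, median 2.86). The region 3L:7179355-7179704 had 0 counts against 8 to 51 (1.501 to 3.01, median 2.11). The region 2L:8757543-8757910 had 2 counts, or -0.24 log2 CPM, against 35 to 123 (2.93 to 3.84, median 3.34). All 5 were 346 to 460 bp long. In each, DGRP_25185 lay below the 14 by the rule, and it also lay below all of the 16. The region 2L:15830705-15831057 was closely followed by another lost region, 2L:15831333-15831776, also with 0 counts.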

How the data were processed

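ATAC-seq reads were counted by the authors over 1 merged set of regions, and the deposited values are raw counts per region and library. Per the submitters' processing notes, the tools were Bowtie2, MACS2, featureCounts and DESeq2, with no versions, on build dm3. For duplicates, reads matching several places and the cut offset, the sources used here give no treatment.

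Counts became log2 CPM with TMM factors over the 31 DGRP libraries (edgeR 4.0.16, R 4.3.3; prior count 2); the rest was done in Python 3.11.15 and checked on simulated data. Regions were named by rule: the 10 largest gains with 20 counts or more, the largest on each arm, the 3 longest, the longest run, the 5 largest losses, and 2 on either side of the threshold. Others named were chosen after their values were seen. The members and lists were chosen with earlier results of these data known. Intervals and floors cover counting error only. DESeq2 1.42.0 gave alternative size factors.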

Additional observations from a re-analysis of the deposited data

How the results depend on the processing

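All results are counts and shares of 1 library with no test, so changes with the processing are given as values. The count of 275 gained regions was 250 with library totals, 274 with DESeq2 size factors, 275 with TMM factors from the 15 libraries, 277 and 252 with prior counts of 0.5 and 10, and 253 after thinning every library to 2647425 counts, 243 of them shared. Against all 30 other libraries it was 206. A threshold of 0.5 gave 671 gained and 506 lost regions, with 23.5% of the gained on X, and one of 2 gave 83 and 16, with 37.3% on X. Among regions with a mean of 50 counts or more, 43 were gained and 49 lost, the median length of the gained was 643 bp and 20.9% were on X. Losses fell to 32 with a prior count of 10 and to 61 against all 30 libraries, where 38.3% of the gained regions were on X. With each run counted once, an alternative chosen after seeing the data, there were 131 gained units with a median length of 494 bp, 23.7% of them on X. Within 5 Mb of the centromere side lay 28% of the gained regions, against 20.1% of all. Leaving out each of the 14 libraries in turn gave 276 to 297 gained and 126 to 153 lost regions, a median length of 394 to 399.5 bp, 9.76% to 11.4% within 2 Mb and 30.6% to 32.5% on X. By the rule, leaving out a library can only keep or raise both counts, and adding libraries can only keep or lower them. Library totals moved the median of all regions by -0.057 log2 units. Apart from the direction that the rule fixes, the causes of these changes were not tested. No paired analysis was possible because line DGRP_25185 has 1 library and its values come from no test. At the depth of the DGRP_25185 library 21 of the 125 lost regions had 0 counts, and thinning left 87 losses.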
